A study of Mus musculus with 22 samples.

Results

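Klf2, Klf4 and Klf5 are 3 Krüppel-like transcription factors, taken here by their symbols from a mouse RNA-seq count table of 55367 gene symbols. All 3 were found in the table, and all 3 passed the filter on low counts that left 17547 genes for testing. The study asked how Ezh2, the methyltransferase subunit of Polycomb repressive complex 2 (PRC2), affects the choice between embryonic stem cells (ESCs) and primitive endoderm (PrE), the extraembryonic lineage that lines the blastocyst cavity. It comprised 22 RNA-seq libraries in 10 groups.

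The PrE stem cells were in a PrE stem cell culture and came as 3 sets of 2 libraries each. EPZ-iPrE1 and EPZ-iPrE2 were 2 wild-type E14 lines obtained from ESCs with the EZH2 inhibitor EPZ-6438, and C57 PrESC was a wild-type C57 line. The Ezh2-deficient groups were E14 ESCs of a single knockout clone, clone 10, in serum with the cytokine LIF (SL, 3 libraries) or in serum with 2i and LIF (S2iL, 2 libraries). 2i is a pair of inhibitors of the MEK and GSK3 kinases. A rescued line of clone 10 in SL, into which Ezh2 had been put back, gave 2 libraries. Wild-type ESCs were E14 cells in SL (3 libraries), E14 cells named TG2A.NG.PB and written TG2A below, in S2iL (2 libraries) and in SL (2 libraries), and C57 ESCs with LIF (2 libraries). Whether libraries of a group came from separate cultures was not stated, so p-values measure the spread between these libraries, which may be technical. The labels also give no promoter or vector for the rescue, and do not say whether inhibitor was present at harvest of the EPZ lines. Cell type and culture medium changed together between PrE cells and ESCs and cannot be told apart.

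KLF proteins bind GC-rich and CACCC sequences through zinc fingers at their C-terminus. In mouse ESCs, Klf2, Klf4 and Klf5 share many genomic targets with Nanog, Oct4 and Sox2, and removal of all members of the trio leads to differentiation, whereas loss of 1 member is partly covered by the others. Klf4 is a target of LIF and Stat3, Klf2 protein is destabilised by ERK signalling, and Klf5 acts in the trophectoderm and inner cell mass of the blastocyst.

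In the mm10 genome (GENCODE annotation), Klf2 lies on chromosome 8 from 72319033 to 72321656 on the plus strand, Klf4 on chromosome 4 from 55527143 to 55532466 on the minus strand, and Klf5 on chromosome 14 from 99298691 to 99315036 on the plus strand. Their annotated exons cover 1.847, 3.049 and 5.201 kb, and no other annotated gene overlaps any of the 3. The 250 bases before the RefSeq start of Klf2 and Klf4 (build GRCm38.p6, gene strand) follow, because Klf2 was almost silent in PrE cells and Klf4 was not. Capitals mark GC boxes (GGGCGG on either strand) and the shorter KLF box (CACCC on either strand).

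Klf2, chr8:72318812-72319061, plus strand: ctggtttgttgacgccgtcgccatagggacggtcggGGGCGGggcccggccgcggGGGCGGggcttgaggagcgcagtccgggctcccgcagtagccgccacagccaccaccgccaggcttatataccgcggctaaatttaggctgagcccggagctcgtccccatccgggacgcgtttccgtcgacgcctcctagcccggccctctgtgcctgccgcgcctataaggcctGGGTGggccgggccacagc

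Klf4, chr4:55532476-55532725, minus strand: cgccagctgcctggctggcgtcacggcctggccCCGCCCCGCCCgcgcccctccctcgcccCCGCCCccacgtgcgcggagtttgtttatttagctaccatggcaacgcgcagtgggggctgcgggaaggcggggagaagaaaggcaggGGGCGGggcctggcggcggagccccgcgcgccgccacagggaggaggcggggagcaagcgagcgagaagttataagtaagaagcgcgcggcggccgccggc

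Both windows are rich in G and C, at 71.2% for Klf2 and 74% for Klf4. The Klf2 window holds 2 GC boxes, which start 214 and 195 bases before the start site, and 1 KLF box on the minus strand. The GENCODE start of Klf2 given above lies inside this window, and the KLF box lies downstream of it. The Klf4 window holds 4 GC boxes, of which the pair at 217 and 212 bases before the start overlap each other. A GC box occurs in 32.7% of the 32851 RefSeq windows of this length and a KLF box in 52.0%. The E-box CACGTG occurs once in the Klf4 window and in 6.02% of all windows. Neither TTCNNNGAA, the half-site pair read by STAT factors, nor TATAAA occurs in either window, against 7.02% and 12.4% of all windows.

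Library totals ran from 13.6M to 26.3M estimated counts. Ezh2 was at 0 to 6 counts in each of the 5 knockout libraries and averaged 514 ± 26.5 CPM (counts per 1000000, on TMM-scaled library sizes) in the rescued line (SD, n = 2), against 180 ± 5.68 CPM in E14 ESCs (SD, n = 3). The summed CPM of 11 PrE markers was 13644 to 23775 in PrE libraries, 2396 to 2777 in knockout SL libraries, 618 and 628 in knockout S2iL libraries, and 218 to 901 in wild-type and rescued ESC libraries. The top of the last range was C57 ESC replicate 1, against 336 in C57 ESC replicate 2 and 480 in the next highest library. Of 6 ESC markers, Fgf4 was at 0 in all 4 EPZ libraries and Tdgf1 in 2 of them, while Pou5f1 stayed at 435 to 807 CPM in the 6 PrE libraries. The C57 libraries agreed less well within their groups than the others (Pearson r of log2 CPM across genes of 0.960 for ESCs and 0.952 for PrESCs, against 0.979 to 0.991 in the other groups, as a description). The 2 C57 ESC libraries stood far apart in Klf4, at 303 and 58.2 CPM, and they enter every Klf4 test, because the fit shares 1 estimate of the spread per gene over all 22 libraries.

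The sum of 15 fibroblast markers, a check for feeder cells, was 2307 CPM in C57 PrESC replicate 2, 398 in C57 ESC replicate 2, 344 in EPZ-iPrE2 replicate 2 and 216 in EPZ-iPrE1 replicate 1, against 11.5 to 81.0 CPM in the other 18 libraries. In each of these 4 groups the library with the higher sum had the lower Klf4 and the lower Klf5. The sum of 10 macrophage markers was 189 CPM in C57 PrESC replicate 2 and 6.3 to 61.5 CPM elsewhere, and that of 9 trophoblast markers was 1.8 to 37.7 CPM in PrE libraries and 23.4 to 179 CPM in ESC libraries. The part of such cells in the levels below was not tested beyond the fit without these 4 libraries, whose values stand beside the results they move. The counts for partner and pathway genes were not refitted without them. Bulk RNA cannot tell fewer expressing cells from less RNA per cell.

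Klf2 was almost lost from all PrE stem cells. It was at 0.691 and 0.234 CPM in EPZ-iPrE1 and at 0.275 and 0.395 CPM in EPZ-iPrE2, against 144 and 228 CPM in TG2A ESCs. C57 PrESCs held 0.474 and 0.989 CPM, against 119 and 131 CPM in C57 ESCs. All 6 PrE libraries lay below 1 CPM and all 16 ESC libraries above 100 CPM, so no groups came near each other. These PrE values rest on 3 to 17 counts per library. The log2 change was -8.62 ± 0.32 (SE) in EPZ-iPrE1, -9.08 ± 0.32 in EPZ-iPrE2 and -7.37 ± 0.29 in C57 PrESCs, with edgeR quasi-likelihood adjusted p-values of 3.12e-12, 2.15e-12 and 5.01e-12 (n = 2 against 2 each). Klf2 was the only member called in the EPZ comparisons, and Klf2 and Klf5 were called in the C57 one. In these 3 comparisons 60.1%, 62.2% and 60.6% of the 17547 genes tested were called, and 32.2%, 33.4% and 33.4% were called lower.

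**Figure D1:**
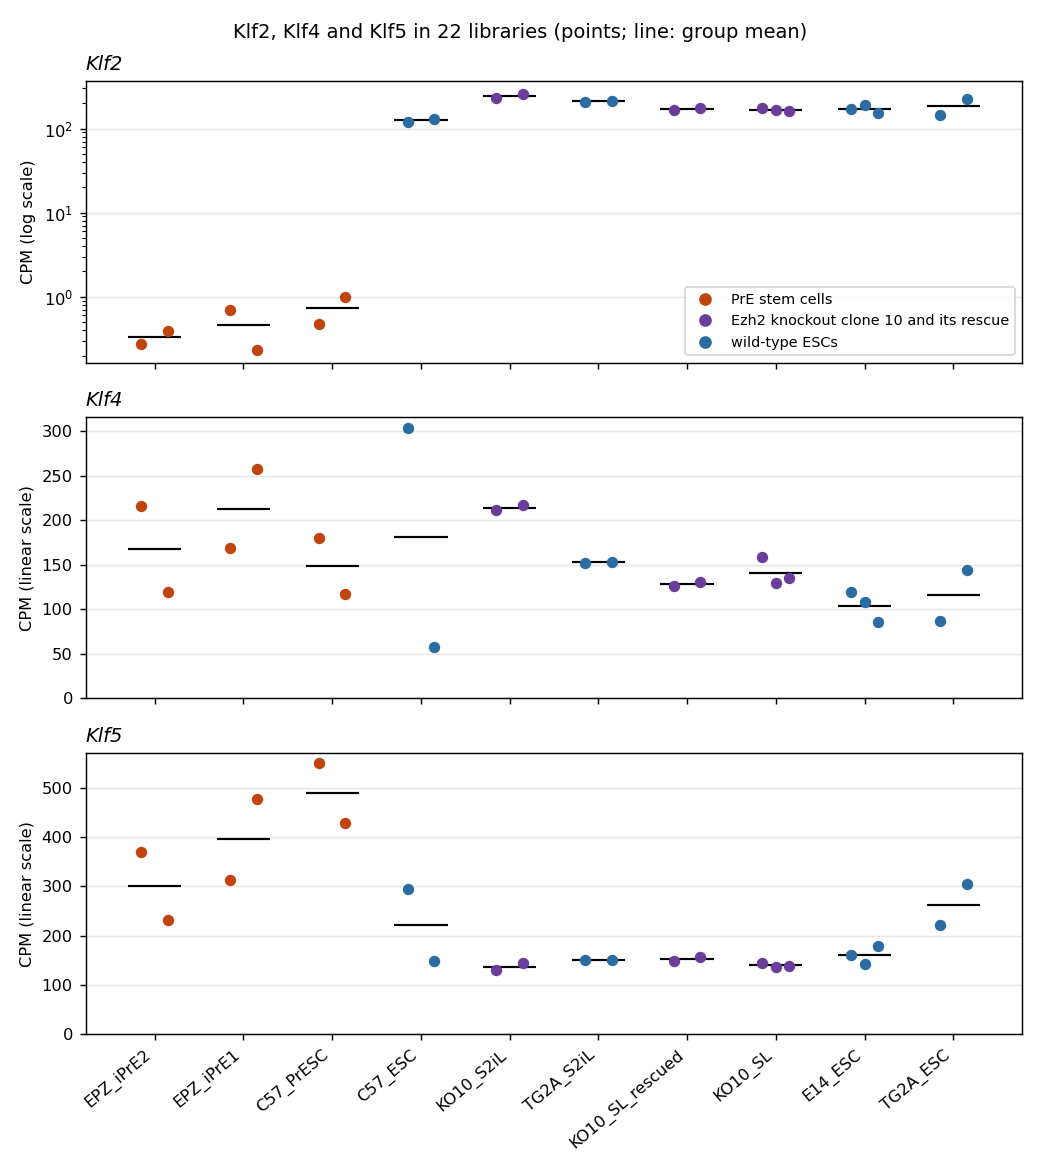
CPM of Klf2 (log axis), Klf4 and Klf5 (linear axes) in each library, with a line at the group mean. Klf2 lies below 1 CPM in all 6 PrE libraries and above 100 CPM in all 16 ESC libraries, while the Klf4 values of the PrE libraries lie within the range of the ESC libraries. The top of that Klf4 range is C57 ESC replicate 1.

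Klf5 was higher in C57 PrESCs. It was at 549 and 428 CPM in C57 PrESCs, against 294 and 148 CPM in C57 ESCs. Both PrESC libraries lay above both ESC libraries, and the log2 change was 1.15 ± 0.27 (SE, edgeR adjusted p = 0.00164), where 27.3% of tested genes were called higher. With only the C57 groups in the fit the call was lost (edgeR adjusted p = 0.0761). EPZ-iPrE1 held 313 and 477 CPM and EPZ-iPrE2 held 370 and 232 CPM, against 221 and 304 CPM in TG2A ESCs. The EPZ-iPrE1 libraries lay above the TG2A ones and the EPZ-iPrE2 libraries overlapped them. Neither change was called, at 0.59 ± 0.27 (SE, edgeR adjusted p = 0.0691) and 0.20 ± 0.27 (adjusted p = 0.541). EPZ-iPrE1 passed when either its replicate 1 (0.84) or TG2A ESC replicate 2 (0.86) was left out, and, in fits chosen after seeing the data, without the C57 ESC libraries (0.60) or without the 4 libraries with high fibroblast sums (0.87). In the fit without those 4 libraries EPZ-iPrE2 passed too, at 0.51. The 3 highest group means of Klf5 in the series were those of the PrE groups. All EPZ libraries also lay above the E14 ESC libraries in SL (143 to 179 CPM), a comparison that was not tested. The labels do not say which ESCs were the parent of the EPZ lines.

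Klf4 was present in all PrE libraries, at 117 to 257 CPM, within the range of the ESC libraries. The top of that range was C57 ESC replicate 1 (303 CPM). The other ESC libraries reached 217 CPM, below EPZ-iPrE1 replicate 2. All EPZ libraries lay above the E14 ESC ones (85.5 to 119 CPM), a comparison that was not tested. Klf4 was at 168 and 257 CPM in EPZ-iPrE1 and at 216 and 120 CPM in EPZ-iPrE2, against 86.8 and 144 CPM in TG2A ESCs. Both EPZ-iPrE1 libraries lay above the TG2A ones, and the EPZ-iPrE2 libraries overlapped them. The log2 changes of 0.88 ± 0.49 (SE) and 0.54 ± 0.48 were not called (edgeR adjusted p = 0.129 and 0.348). The EPZ-iPrE1 value was called with only the groups compared (edgeR adjusted p = 0.0362) and without the C57 ESC libraries (0.0111). Without the 4 libraries with high fibroblast sums the changes were larger, at 1.16 in EPZ-iPrE1 and 0.919 in EPZ-iPrE2. With no filter on low counts both lines were called, at 0.878 and 0.525. The cause of this dependence on the fit was not tested. In C57 PrESCs it was at 180 and 117 CPM, against 303 and 58.2 CPM in C57 ESCs. The ESC libraries lay on either side of the PrESC ones, and the change was -0.28 ± 0.48 (adjusted p = 0.634). Its direction depended on 1 library: it was 1.38 without C57 ESC replicate 1 (edgeR adjusted p = 0.00419) and -1.02 without C57 ESC replicate 2 (edgeR adjusted p = 0.0155), and without the 4 libraries with high fibroblast sums it was -0.76 (edgeR adjusted p = 0.0185).

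Set against C57 PrESCs, the mean of both EPZ lines was called in none of the 3 genes by edgeR or DESeq2, with 1 of 3 at an unadjusted p under 0.05 and 40.7% of all genes called. The log2 differences were -0.91 ± 0.46 (SE) for Klf2, 0.35 ± 0.42 for Klf4 and -0.50 ± 0.23 for Klf5. Klf5 was called without EPZ-iPrE1 replicate 2 (-0.68) or EPZ-iPrE2 replicate 1 (-0.69), and Klf2 without EPZ-iPrE1 replicate 1 (-1.39). Between the EPZ lines, EPZ-iPrE2 minus EPZ-iPrE1, the differences of -0.46 ± 0.65, -0.34 ± 0.48 and -0.39 ± 0.27 were not called either (0 of 3 by both tools, 0 at an unadjusted p under 0.05, 3.91% of all genes called). Cell line, derivation and labelled ESC medium differed together between the 2 origins and cannot be told apart. The change from ESCs differed between the 2 origins for Klf2, by -1.48 ± 0.50 (edgeR adjusted p = 0.0287, 35.1% of all genes called), with the larger fall in the EPZ lines. The same difference was 0.99 ± 0.64 for Klf4 (adjusted p = 0.257) and -0.75 ± 0.36 for Klf5 (adjusted p = 0.114). The Klf2 call was lost in 5 of 10 fits that left out 1 library, with a value of -0.84 without C57 PrESC replicate 2, and with only the groups compared (edgeR adjusted p = 0.112). The other losses were without C57 ESC replicate 1 (-1.42), EPZ-iPrE1 replicate 2 (-1.21), EPZ-iPrE2 replicate 1 (-1.38) and TG2A ESC replicate 2 (-1.12). For Klf4 this difference was -0.65 without C57 ESC replicate 1 and 1.73, a call, without C57 ESC replicate 2. It was 1.80 without the 4 libraries with high fibroblast sums. For Klf5 it was called without C57 ESC replicate 1 (-1.33) or EPZ-iPrE2 replicate 1 (-0.95).

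**Figure D2:**
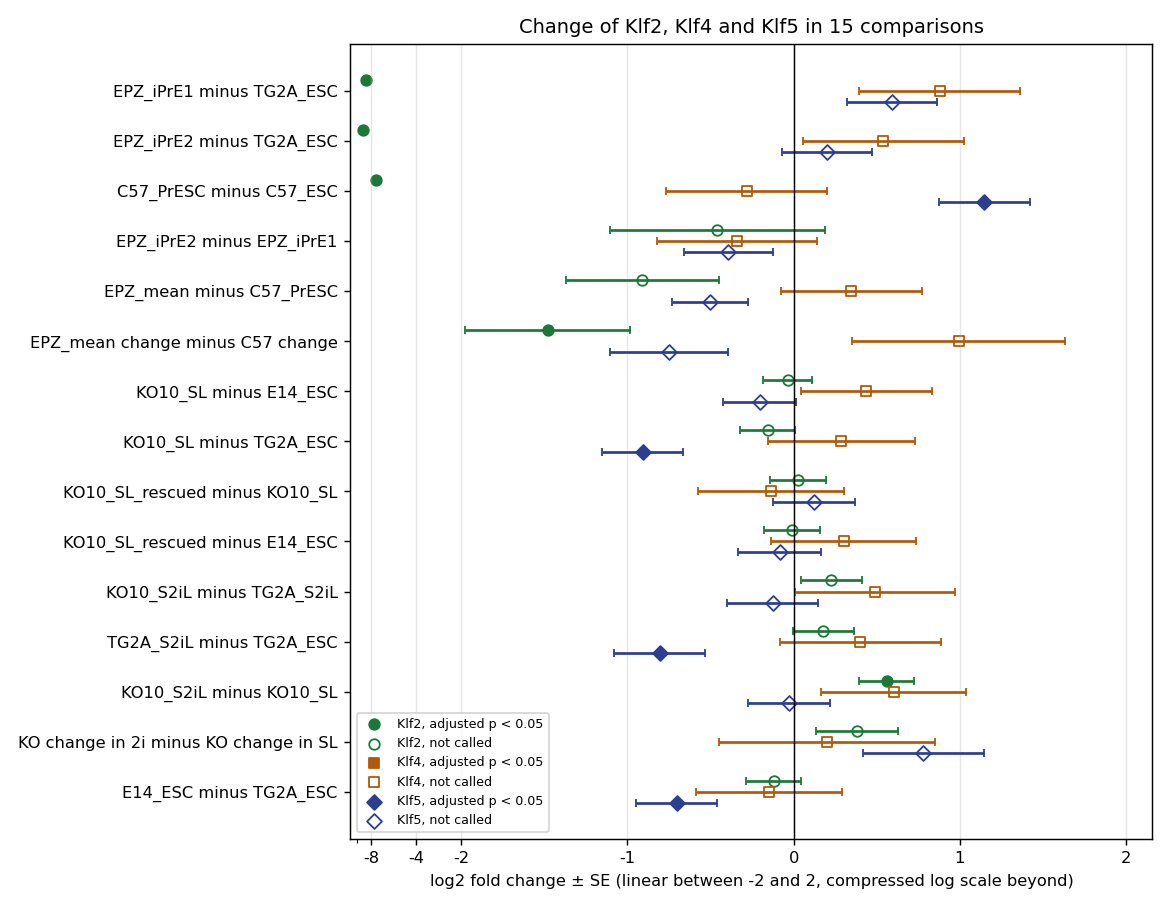
Log2 fold change ± SE of Klf2, Klf4 and Klf5 in 15 comparisons from the fit over all 22 libraries, on an axis that is linear between -2 and 2 and logarithmic beyond. Filled symbols passed an adjusted p of 0.05: Klf2 fell by over 7 in each of the PrE comparisons, and Klf4 has no filled symbol.

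Levels of different genes were compared per kb of exon sequence. The trio summed to 116 and 176 CPM per kb in EPZ-iPrE1, 142 and 84.2 in EPZ-iPrE2 and 165 and 121 in C57 PrESCs, against 149 and 229 in TG2A ESCs and 220 and 119 in C57 ESCs. EPZ-iPrE1 overlapped TG2A ESCs and C57 PrESCs overlapped C57 ESCs, while both EPZ-iPrE2 libraries lay below both TG2A ones. The summed level of the trio was not tested. Klf2 made up 0.07% to 0.44% of the sum in PrE libraries, against 52.4% to 62.0% in the 14 ESC libraries of E14 origin and 29.2% and 59.9% in C57 ESCs. Klf4 and Klf5 shared the remainder about evenly in the EPZ lines, with a Klf4 to Klf5 ratio per kb of 0.881 to 0.996 in 4 libraries. In C57 PrESCs that ratio was 0.561 and 0.465, so Klf5 was the major member there at 66.0% ± 2.83 of the sum (SD, n = 2). In the 4 EPZ libraries the sum itself ran from 84.2 to 176 CPM per kb.

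**Figure D3:**
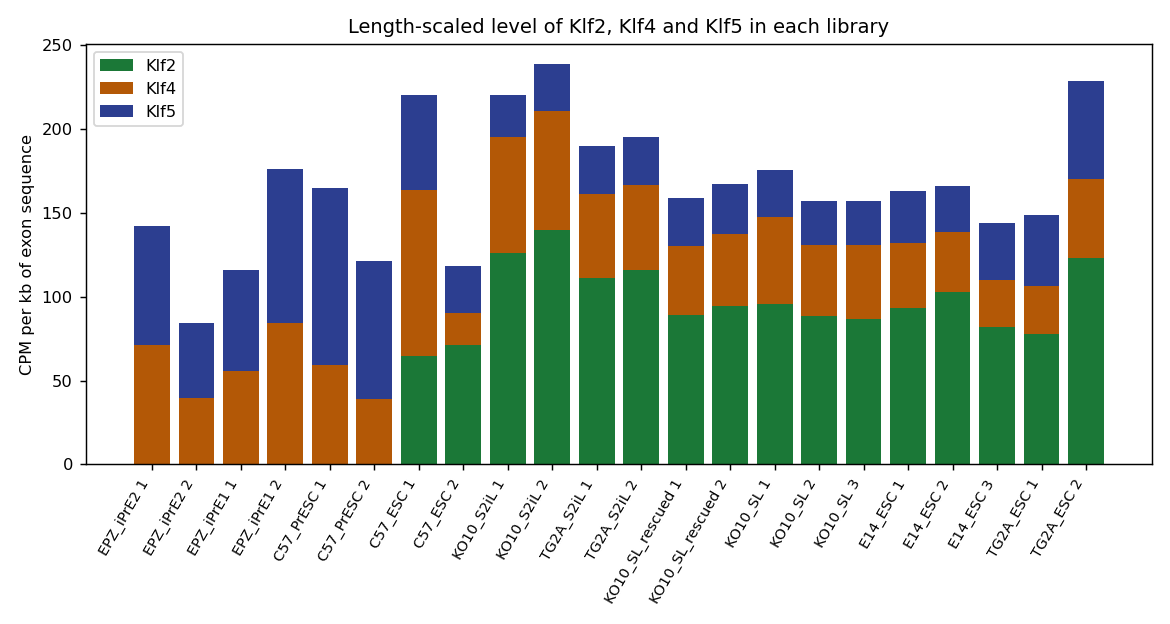
Stacked CPM per kb of exon sequence of Klf2, Klf4 and Klf5 in each of the 22 libraries. Klf2 is the major part of every bar from E14-derived ESCs and is not visible in the 6 PrE bars, which consist of Klf4 and Klf5.

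Across the 10 groups Klf2 was highest in knockout S2iL cells (246 ± 18.0 CPM, SD, n = 2), followed by TG2A S2iL, TG2A SL, E14, rescued, knockout SL and C57 ESCs, and then by the PrE groups. Neighbours in this order overlapped except knockout S2iL over TG2A S2iL, knockout SL over C57 ESCs, and C57 ESCs over C57 PrESCs. For Klf4 every neighbour overlapped the next, from knockout S2iL cells (211 and 217 CPM) down to 104 ± 17.1 CPM in E14 ESCs (SD, n = 3). For Klf5 the order ran from 489 ± 85.3 CPM in C57 PrESCs (SD, n = 2) through EPZ-iPrE1, EPZ-iPrE2, TG2A SL, C57 ESCs, E14, rescued, TG2A S2iL and knockout SL cells to 137 ± 10.3 CPM in knockout S2iL cells (SD, n = 2). Only TG2A S2iL and knockout SL cells did not overlap as neighbours there.

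**Figure D4:**
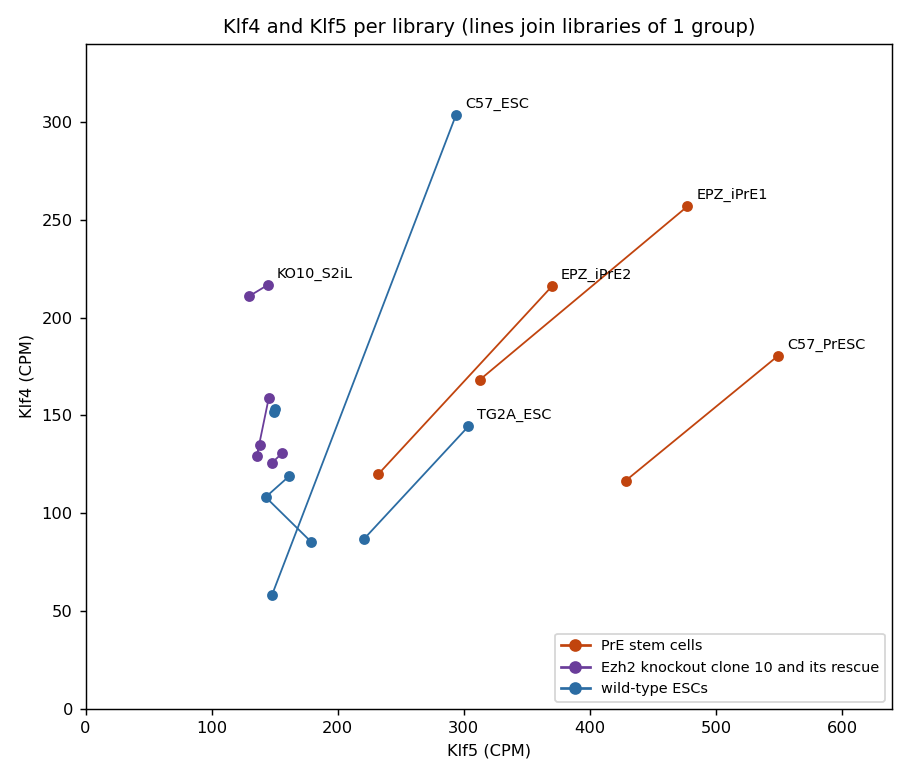
Klf4 against Klf5 CPM for each library, with lines that join libraries of a group. The 3 PrE groups and the TG2A and C57 ESCs each spread along a rising line, and the knockout, rescued, E14 and S2iL libraries lie below 180 CPM of Klf5.

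Loss of Ezh2 in SL left the trio without a call while PrE genes rose. Klf2 was at 177, 164 and 160 CPM in knockout cells, against 172, 190 and 151 CPM in E14 ESCs. Klf5 was at 145, 136 and 138 CPM in knockout cells, against 162, 143 and 179 CPM in E14 ESCs. Both genes overlapped between the groups. Klf4 was at 159, 129 and 135 CPM in knockout cells, against 119, 108 and 85.5 CPM in E14 ESCs, and its groups did not overlap. The log2 changes were -0.04 (95% interval -0.35 to 0.28) for Klf2, 0.44 (-0.40 to 1.27) for Klf4 and -0.21 (-0.67 to 0.26) for Klf5, with edgeR adjusted p-values of 0.862, 0.378 and 0.465. None of the 3 was called by edgeR or DESeq2 and none had an unadjusted p under 0.05, where 48.6% of all genes were called. With only these 6 libraries in the fit, Klf4 was called at 0.42 (adjusted p = 0.00735) and Klf5 at -0.22 (adjusted p = 0.0346). In the same cells all 11 PrE markers rose, with a median log2 change of 4.64 (25.8% of all genes rose, median of all genes 0.07), and of the 6 ESC markers Pou5f1 rose by 0.47 and Sox2 fell by 0.56. Against TG2A ESCs all 11 PrE markers rose as well, with a median of 2.87 (13.6% of all genes rose). Of the ESC markers Sox2 fell by 0.42 and Utf1 by 0.36 there, and Pou5f1 was not called (-0.33). The wild-type sets differed too, with 7 of the 11 PrE markers lower in E14 than in TG2A ESCs (13.1% of all genes called lower).

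Against the other wild-type set, TG2A ESCs in SL, 1 of 3 members was called, with 27.7% of all genes called. Klf2 (-0.16 ± 0.17, SE) and Klf4 (0.29 ± 0.44) were not called. For Klf5 the knockout libraries above lay under both TG2A ones (221 and 304 CPM), at -0.91 ± 0.24 (SE, edgeR adjusted p = 0.0104, 14.1% of all genes called lower). The wild-type sets themselves differed in this 1 of the 3 genes (24.3% of all genes called), with E14 minus TG2A at -0.70 ± 0.24 (SE, edgeR adjusted p = 0.0452, 13.1% of all genes called lower). Without TG2A ESC replicate 2 these values were -0.64 (edgeR adjusted p = 0.156) and -0.45 (adjusted p = 0.412). The second of these calls was also lost without any 1 of the 3 E14 libraries. Both TG2A libraries lay above every knockout and E14 library in Klf5. For Klf2 and Klf4, E14 minus TG2A was -0.12 ± 0.17 (SE) and -0.15 ± 0.44, not called.

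With Ezh2 put back, 45% of all genes were called against the knockout and none of the trio was. The rescued libraries held 165 and 175 CPM of Klf2, 126 and 131 CPM of Klf4, and 148 and 156 CPM of Klf5. Against the knockout values above, the log2 changes were 0.03 ± 0.17 (SE), -0.14 ± 0.44 and 0.12 ± 0.25, and 0 of 3 were called by edgeR, by DESeq2 or at an unadjusted p under 0.05. Both rescued Klf5 values lay above the 3 knockout ones, while Klf2 and Klf4 overlapped. The 11 PrE markers all fell, with a median of -4.23 (24.1% of all genes fell). Against E14 ESCs the rescued line differed by -0.01 ± 0.17, 0.30 ± 0.44 and -0.08 ± 0.25, again with 0 of 3 called by either tool or at an unadjusted p under 0.05, in a comparison where 0.108% of all genes were called. Both rescued Klf4 values lay above the 3 E14 ones, while the other two genes overlapped. The Ezh2 of the rescued line was 2.86 times that of E14 ESCs.

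In knockout cells Klf2 was higher with 2i. Knockout S2iL libraries held 233 and 259 CPM of Klf2, above the 160 to 177 CPM of the knockout SL libraries, with a log2 change of 0.56 ± 0.17 (SE, edgeR adjusted p = 0.0141, the only call among the 3 members, 36.9% of all genes called and 19.6% called higher). The call was lost without knockout S2iL replicate 2 (0.47, edgeR adjusted p = 0.129). Klf4 was at 211 and 217 CPM in knockout S2iL cells, also above all 3 SL libraries, at 0.60 ± 0.43 (adjusted p = 0.300). It was called with only these groups in the fit (0.54, adjusted p = 1.99e-04). Klf5 was at 130 and 145 CPM and overlapped the SL libraries (-0.03 ± 0.25).

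In wild-type TG2A cells Klf5 was lower with 2i, the only call among the 3 members (23.3% of all genes called). It was at 150 CPM in both S2iL libraries, below the 221 and 304 CPM in SL, with a log2 change of -0.81 ± 0.27 (SE, edgeR adjusted p = 0.0412, 11.6% of all genes called lower). This call was lost in 3 of the 4 fits that left out 1 library, those without TG2A ESC replicate 2 (-0.56) and without TG2A S2iL replicate 1 (-0.81) or 2 (-0.82), and under the replicate block (edgeR adjusted p = 0.0554). The S2iL values of Klf5 lay within the range of the other wild-type set in SL, E14 ESCs (143 to 179 CPM). Klf2 was at 206 and 215 CPM in S2iL, between the 144 and 228 CPM in SL, at 0.18 ± 0.18 (adjusted p = 0.525). Klf4 was at 152 and 153 CPM in S2iL, above the 86.8 and 144 CPM in SL, at 0.40 ± 0.48 (adjusted p = 0.596).

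Under 2i, knockout cells lay above TG2A cells in Klf2 and Klf4 and below them in Klf5 in all 4 libraries compared, by 0.23 ± 0.18 (SE), 0.49 ± 0.48 and -0.13 ± 0.27. None was called by edgeR or DESeq2 and none had an unadjusted p under 0.05, where 30% of all genes were called. With only these 4 libraries in the fit, Klf2 (adjusted p = 0.00322) and Klf4 (4.13e-06) were called. The effect of the knockout against TG2A cells was not shown to depend on the medium. The differences between its S2iL and SL values were 0.38 ± 0.25 for Klf2, 0.20 ± 0.65 for Klf4 and 0.78 ± 0.37 for Klf5, with 0 of 3 called by edgeR or DESeq2, 1 of 3 at an unadjusted p under 0.05, and 1.95% of all genes called.

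Of the other Klf genes more rose than fell in each PrE comparison. Of 14 further family members 13 were tested, all but Klf14, which had at most 9 counts in a library. In EPZ-iPrE1, 6 rose and 3 fell, in EPZ-iPrE2 7 rose and 4 fell, and in C57 PrESCs 8 rose and 3 fell, with medians of 0.45, 0.55 and 0.43 against -0.07, -0.11 and -0.09 over all genes. Over all genes 27.9%, 28.8% and 27.3% were called higher and 32.2%, 33.4% and 33.4% were called lower. The falls lie near or below those shares and are no result about the family. Both EPZ comparisons share the TG2A libraries. Klf6, an activator induced in wounded and remodelling tissue, rose in each. It was at 89.2 and 92.4 CPM in EPZ-iPrE1 and 105 and 107 in EPZ-iPrE2, against 25.8 and 31.8 in TG2A ESCs, and at 195 and 200 in C57 PrESCs, against 40.9 and 78.2 in C57 ESCs. Its log2 changes were 1.65, 1.88 and 1.73. Klf15, a metabolic regulator, rose by 2.48 in C57 PrESCs.

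Klf17, a family member of germ cells and early embryos, fell by 1.98 in EPZ-iPrE1 and by 3.14 in EPZ-iPrE2, and in C57 PrESCs it was at 0 and 0.0582 CPM, against 1.75 and 1.97 CPM in C57 ESCs. Klf12, a repressor that recruits CtBP, went different ways. It was at 1.31 and 1.40 CPM in EPZ-iPrE1 and 0.893 and 1.25 in EPZ-iPrE2, against 6.14 and 6.24 in TG2A ESCs, but at 13.7 and 16.4 CPM in C57 PrESCs, against 4.69 and 11.97 in C57 ESCs. It fell by 2.19 and 2.52 in the EPZ lines and rose by 0.86 in C57 PrESCs. With only the groups compared, the C57 rises dropped to 3 and the falls in the EPZ lines to 1 and 2. Leaving out 1 library took the C57 rises to 4 (without C57 ESC replicate 2) or 5 (without C57 PrESC replicate 1) and the falls to 1 in EPZ-iPrE1 (without its replicate 1 or TG2A ESC replicate 1) and to 2 in EPZ-iPrE2 (without its replicate 2 or TG2A ESC replicate 2).

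The number of these relatives that fell without Ezh2 depended on the wild-type set. Of the 13 tested, 7 fell in knockout SL cells against E14 ESCs, where 22.7% of all genes fell, with a median of -0.53. Against TG2A ESCs 3 fell, where 14.1% of all genes fell, with a median of -0.23, and 1 fell without TG2A ESC replicate 2. Klf12 was at 1.80 to 2.60 CPM in knockout cells, against 11.0 to 16.0 in E14 ESCs and 6.14 and 6.24 in TG2A ESCs, and fell by 2.62 and 1.48. Klf15 fell by 0.68 against E14 and by 0.76 against TG2A ESCs. Klf7, a neuronal family member, fell by 1.01 against E14 ESCs and was not called against TG2A ESCs (-0.35). In the rescued line 4 rose against the knockout, where 20.9% of all genes rose, led by Klf12 at 18.1 and 23.1 CPM (3.21), Klf7 (0.90) and Klf10 (0.68), a TGF-beta-induced repressor. That count was 2 without rescued replicate 1 or 2, and 8 with only these groups in the fit. With 2i, 6 of 13 rose in knockout cells, where 19.6% of all genes rose, led by Klf7 (1.27), Klf10 (1.18) and Klf15 (0.78). In TG2A cells 1 rose and 1 fell with 2i, where 11.7% of all genes rose and 11.6% fell, and the difference between these counts was not tested.

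**Figure D5:**
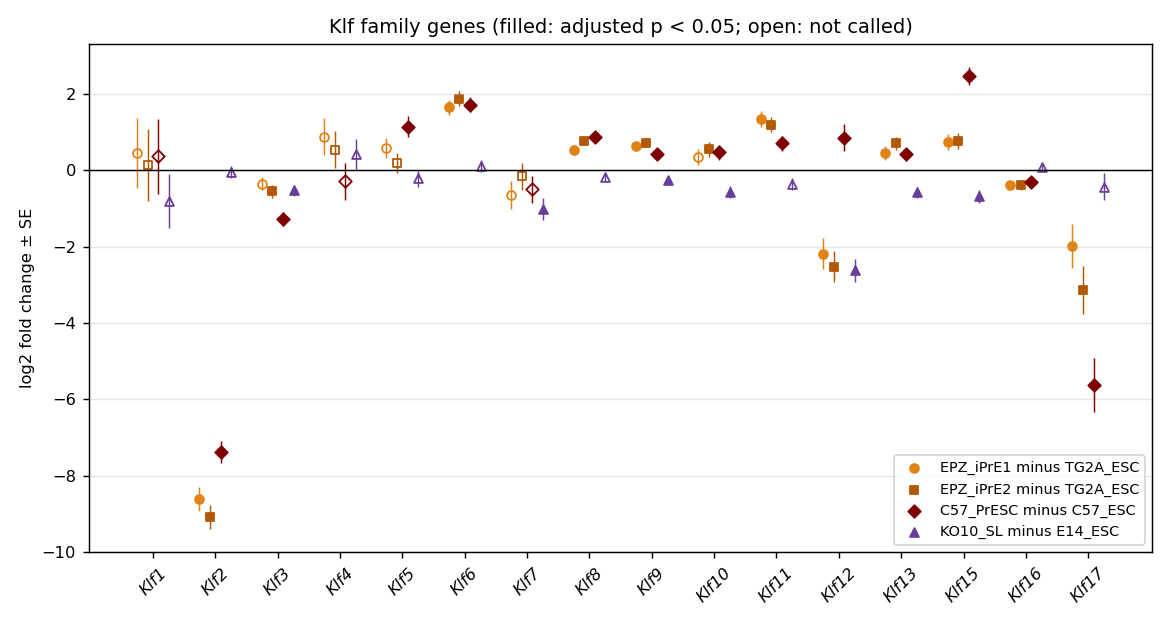
Log2 fold change ± SE of 16 Klf genes in the 3 PrE comparisons and in knockout SL cells against E14 ESCs, with filled symbols for adjusted p under 0.05. Klf2 has the largest fall in each PrE comparison, Klf6 is up in all 3, and Klf12 is down in the EPZ lines and the knockout and up in C57 PrESCs.

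The factors that share targets with the trio in ESCs fell in PrE cells in the main. Of 11 such partners, 9 fell in EPZ-iPrE1 and 9 in EPZ-iPrE2, and in C57 PrESCs 7 fell and 1 rose, with medians of -3.87, -3.89 and -2.31. Over all genes 32.2%, 33.4% and 33.4% fell, with medians of -0.07, -0.11 and -0.09. Nanog, the homeobox factor of the naive state, averaged 0.539 CPM in EPZ-iPrE1 and 0.233 in EPZ-iPrE2, against 320 in TG2A ESCs. Nr5a2, an orphan nuclear receptor, averaged 0.659 and 0.205 CPM in these lines, against 83.4 in TG2A ESCs, and Prdm14, a repressor of differentiation genes, 0.232 and 0.137, against 22.8. In C57 PrESCs Sox2 averaged 0.0629 CPM, against 435 in C57 ESCs, and Prdm14 was at 0 in both libraries, against 21.4. The exception was Tbx3, a T-box factor that also acts in endoderm, which rose by 1.60 ± 0.44 (SE, edgeR adjusted p = 0.00458) to 323 CPM, against 106 in C57 ESCs. In knockout SL cells against E14 ESCs 3 of the 11 partners rose and 1 fell, where 25.8% of all genes rose and 22.7% fell, with Tbx3 at 1.06, Prdm14 at 0.84 and Pou5f1 at 0.47, and Sox2 at -0.56. Against TG2A ESCs 1 rose and 2 fell, where 13.6% of all genes rose and 14.1% fell. Prdm14 rose (0.93) and Sox2 fell (-0.42) there too, Gbx2 fell by 1.36, and Tbx3 (0.65) and Pou5f1 (-0.33) were not called.

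The LIF and Stat3 pathway acts on Klf4, and its gene list held signalling genes as well as Stat3 targets and a feedback inhibitor. Of 10, 2 rose and 3 fell in EPZ-iPrE1, 4 rose and 2 fell in EPZ-iPrE2, and 1 rose and 6 fell in C57 PrESCs. Over all genes 27.9%, 28.8% and 27.3% rose and 32.2%, 33.4% and 33.4% fell, so the EPZ counts lie near those shares. The kinase gene Jak2 rose by 2.11 in EPZ-iPrE1 and by 1.97 in EPZ-iPrE2, and the Stat3 targets Pim3 and Pim1 fell by 2.45 and 1.39 in EPZ-iPrE1 and by 3.18 and 2.68 in EPZ-iPrE2. In C57 PrESCs Pim1 fell by 4.46 and Socs3, the feedback inhibitor, fell by 2.77, while Lifr rose by 0.67. In knockout SL cells 2 rose and 5 fell against E14 ESCs, and 2 rose and 3 fell against TG2A ESCs, where the shares of all genes were 25.8% and 22.7%, and 13.6% and 14.1%. The receptor chain Il6st fell by 1.05 against E14 and by 0.46 against TG2A ESCs, Jak2 rose by 0.78 and 0.91, and Jak1 rose by 0.61 and 0.85. With 2i, 5 rose in knockout cells and 3 in TG2A cells, where 19.6% and 11.7% of all genes rose, in both with Jak2 (1.04 and 1.01), Il6st (0.88 and 0.56) and Jak1 (0.47 and 0.46).

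The ERK branch, which 2i blocks, was read from 13 targets and feedback inhibitors. In TG2A cells 9 of 13 fell with 2i, where 11.6% of all genes fell, with a median of -1.28 against 0 over all genes. The largest falls were of Egr1 by 5.75, Spry4 by 3.95 and Dusp6 by 2.73. In knockout cells 5 fell with 2i, where 17.3% of all genes fell, and Fos rose by 0.88, with Spry4 falling by 3.69, Etv4 by 2.698 and Dusp4 by 2.55. In the PrE groups 3 rose each time and 4, 6 and 8 fell in EPZ-iPrE1, EPZ-iPrE2 and C57 PrESCs. Over all genes 27.9%, 28.8% and 27.3% rose and 32.2%, 33.4% and 33.4% fell, and the EPZ-iPrE1 counts lie near those shares. The rises there were Egr1 (4.18, 3.48 and 3.10), Fos (4.09, 3.02 and 1.13) and Dusp4 (3.48, 3.87 and 2.57), immediate-early and feedback genes, whereas the Ets factor Etv5 fell by 3.23, 3.51 and 2.84. In each PrE group the library with the higher fibroblast sum had the higher summed CPM of the 13. These sums were 1107 against 741 in EPZ-iPrE1, 966 against 651 in EPZ-iPrE2 and 791 against 599 in C57 PrESCs. C57 ESCs went the other way, at 1072 against 1177. The part of such cells in these rises was not tested.

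Of 6 ubiquitin ligases that target KLF proteins, 1 rose and 1 fell in EPZ-iPrE1, 1 rose and 2 fell in EPZ-iPrE2, and 2 rose and 2 fell in C57 PrESCs. Over all genes 27.9%, 28.8% and 27.3% rose and 32.2%, 33.4% and 33.4% fell, so these counts are no result about the ligases. Wwp1, known to degrade KLF2 and KLF5, rose in all PrE comparisons (0.59, 0.45 and 0.41) and rose by 0.90 in the rescued line against the knockout. In knockout SL cells it fell by 0.79 against E14 ESCs but was not called against TG2A ESCs (-0.14), and E14 ESCs were themselves higher than TG2A ESCs by 0.64. Fbxo32, reported to act on KLF4, fell by 5.07 in EPZ-iPrE1, by 4.37 in EPZ-iPrE2 and by 1.99 in C57 PrESCs. Its levels were low throughout. The means were 0.0390 and 0.0658 CPM in the EPZ lines, against 1.52 in TG2A ESCs, and 0.446 in C57 PrESCs, against 1.84 in C57 ESCs. Of the related Sp factors, which also read GC boxes, 7 were tested. Of these, 4 rose and 1 fell in EPZ-iPrE1, 2 rose and 1 fell in EPZ-iPrE2, and 4 fell in C57 PrESCs, beside the same shares of all genes, which the EPZ-iPrE2 rises match. Sp5, a Wnt target, was up by 3.44 and 3.31 in the EPZ lines, and Sp8 was down by 1.92 in C57 PrESCs. Sp2 fell in all 3, by 0.94, 1.03 and 0.92.

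Likeness of pattern was measured as the root mean square difference of centred log2(CPM + 0.5) group means over the 10 groups, among 11160 tested genes with at least 10 CPM in the highest group. The 5 genes closest to Klf2 were Khdc3, an oocyte and ESC protein (0.385), Pecam1, an adhesion molecule (0.399), Uchl1, a ubiquitin hydrolase (0.466), Nr5a2 (0.5001) and Nanog (0.585), against a median of 3.49 over the pool. Klf4 was closest to Tbkbp1, Tmem231, Mcur1, Tram2 and Ppp1r9b (0.158 to 0.187, median 0.593), and Klf5 to N6amt1, Carnmt1, Ythdf1, Ccdc137 and Synj2bp (0.186 to 0.228, median 0.762). With a pseudocount of 2, 3 of the Klf2, 5 of the Klf4 and 4 of the Klf5 neighbours stayed among the closest 5. Within the trio, Klf4 and Klf5 differed by 0.645, and Klf2 differed from them by 3.58 and 4.001. The median over the pool was lowest for Klf4, the member with the flattest pattern, so closeness is not comparable between members.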

How the data were processed

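RNA-seq was made from mouse cell lines with an rRNA depletion kit per the labels' protocols, although the molecule field names polyA RNA. Per the submitters' processing notes, Trim Galore, STAR 2.7.6a, DESeq2 and mm10 were used; no label or header names a counting tool, annotation or strand setting. The deposited table holds estimated counts by the authors (5.7% to 7.3% of symbols were not whole in a library), not normalized, which were rounded here. edgeR 4.0.16 (filterByExpr, TMM, quasi-likelihood, 1 coefficient per group, 22 libraries, 12 residual degrees of freedom) was fitted with R 4.3.3, Benjamini-Hochberg adjustment ran over all 17547 genes tested within each of 15 comparisons, and calls are adjusted p below 0.05. CPM used TMM-scaled library sizes. Lengths are GENCODE exon unions. Replicates of a group differed by more than sampling noise (chi-square per degree of freedom 2.14 to 58.9). Alternatives were RLE scaling, no filter, only the groups compared, DESeq2 1.42.0, the replicate block and each library left out. The fit was tested on simulated data, where it missed most of the smallest and many of the moderate planted changes, so a gene not called may still have changed. The pass mark for the largest planted changes was lowered after 1 of the 2 simulated comparisons fell short of it.

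The 3 genes and all 11 gene lists were chosen with earlier results of these data known. Named genes were the trio, Ezh2, up to 3 called members of a described list with the largest change, called members that moved against their list, and the 5 genes most like each of the trio. Promoter sequences are from RefSeq (Klf2 and Klf4 matched, Klf5 did not). Depth limits low values: intervals cover the spread between libraries only.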

Additional observations from a re-analysis of the deposited data

Results flagged for a closer look

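The change of Klf2 from ESCs to PrE cells differed between origins, where cell line, derivation and labelled ESC medium cannot be told apart. In the EPZ lines, taken as their mean against TG2A ESCs, it was larger than in C57 PrESCs against C57 ESCs by -1.48 on the log2 scale (edgeR adjusted p = 0.0287), as tested by the difference of the 2 changes. The ESC levels behind it were 144 and 228 CPM in TG2A ESCs and 119 and 131 CPM in C57 ESCs. Between the PrE cells alone, EPZ mean minus C57 PrESC was -0.91 ± 0.46 (SE, edgeR adjusted p = 0.128), not called. The PrE levels were 0.691, 0.234, 0.275 and 0.395 CPM in the EPZ libraries and 0.474 and 0.989 CPM in the C57 PrESC libraries, from 3 to 17 counts each, and these ranges overlapped. C57 PrESC replicate 2, the highest of them, also had a fibroblast marker sum of 2307 CPM. Without the 4 libraries with sums above 200 CPM the difference was -1.51 (adjusted p = 0.281), with 1 library left in each of their groups.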

How the results depend on the processing

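Klf2 kept its fall and its call in the 3 PrE comparisons under every alternative run. Other results moved as follows, as log2 differences of the named gene, and the cause was not tested. DESeq2 and RLE scaling turned Klf5 in knockout S2iL minus SL cells to 0.0135 and 0.0134, against -0.03. DESeq2 called 1063 genes (against 686) for EPZ-iPrE2 minus EPZ-iPrE1, 184 (against 19) for rescued minus E14, and 992 (against 343) for the knockout effect in 2i minus SL.

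With no filter on low counts, calls were made for Klf4 in EPZ-iPrE1 (0.878), EPZ-iPrE2 (0.525), EPZ mean minus C57 PrESC (0.332), the EPZ minus the C57 change (1.002), knockout minus E14 (0.471), knockout minus TG2A (0.333), knockout minus TG2A in S2iL (0.544), and 2i in TG2A (0.409) and knockout cells (0.62). The same fit called Klf5 in EPZ-iPrE1 (0.59), EPZ mean minus C57 PrESC (-0.519), the EPZ minus the C57 change (-0.749) and the knockout effect in 2i minus SL (0.791). It called 1143, 389 and 923 genes in the 3 comparisons named for DESeq2.

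With only the groups compared in the fit, calls were made for Klf4 in EPZ-iPrE1 (0.879), knockout minus E14 (0.421), knockout minus TG2A in S2iL (0.498) and 2i in knockout cells (0.538), for Klf5 in knockout minus E14 (-0.225), rescued minus knockout (0.163) and the knockout effect in 2i minus SL (0.786), and for Klf2 in knockout minus TG2A in S2iL (0.236). Calls were lost for Klf5 in C57 PrESCs (1.15) and Klf2 in the EPZ minus the C57 change (-1.47). Counts of called genes became 5383 (against 10642) for C57, 28 for the EPZ lines, 4445 (against 7150) for EPZ mean minus C57 PrESC, 3041 (against 6167) for the EPZ minus the C57 change, 551 for rescued minus E14, 9607 (against 5263) for knockout minus TG2A in S2iL, 10037 (against 6482) for 2i in knockout cells and 1795 for the knockout effect in 2i minus SL.

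Equal replicate numbers do not pair most of these samples: over 91 pairs the correlation of deviations ran from -0.363 to 0.375, with 6 above 0.1. Where both groups hold only a pair of libraries, both replicate numbers give the same value. The values above 0.1 were 0.375 for C57 PrESC with EPZ-iPrE2, 0.290 for C57 ESC with C57 PrESC and 0.153 for C57 ESC with EPZ-iPrE2. Whether these groups share a replicate factor was not tested. With the replicate block, Klf2 in rescued minus knockout was -0.037, Klf5 with 2i in knockout cells 0.0121, and calls were lost for Klf5 with 2i in TG2A cells (-0.814) and in E14 minus TG2A (-0.751). It called 6 genes for rescued minus E14 and 165 for the knockout effect in 2i minus SL.

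2 fits were chosen after seeing the data. Without both C57 ESC libraries, calls were made for Klf4 (0.886) and Klf5 (0.598) in EPZ-iPrE1 and Klf5 in EPZ mean minus C57 PrESC (-0.531), Klf2 in rescued minus knockout was -0.00614, and 66 and 769 genes were called for rescued minus E14 and for the knockout effect in 2i minus SL. Without the 4 libraries with high fibroblast sums, which leaves 1 library in 4 groups, assumed to vary like the others, calls were made for Klf4 in EPZ-iPrE1 (1.16), EPZ-iPrE2 (0.919), C57 PrESCs (-0.757) and the EPZ minus the C57 change (1.80), and for Klf5 in EPZ-iPrE1 (0.873) and EPZ-iPrE2 (0.513). Klf2 in EPZ-iPrE2 minus EPZ-iPrE1 was 0.233, and its EPZ minus C57 change (-1.51) lost its call.

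Leaving out 1 library gave these ranges. Klf2 ran from -1.03 to 0.507 in EPZ-iPrE2 minus EPZ-iPrE1, -1.39 to -0.251 in EPZ mean minus C57 PrESC, -1.98 to -0.835 in the EPZ minus the C57 change, -0.119 to 0.0451 in knockout minus E14, -0.413 to 0.231 in knockout minus TG2A, -0.0399 to 0.106 in rescued minus knockout, -0.0935 to 0.0704 in rescued minus E14, -0.103 to 0.542 with 2i in TG2A cells, 0.474 to 0.621 with 2i in knockout cells and -0.392 to 0.252 in E14 minus TG2A. Klf4 ran from -1.02 to 1.38 in C57 PrESCs, -0.828 to 0.0236 in EPZ-iPrE2 minus EPZ-iPrE1, -0.647 to 1.73 in the EPZ minus the C57 change, -0.177 to 0.544 in the knockout effect in 2i minus SL and -0.452 to 0.268 in E14 minus TG2A. Klf5 ran from 0.259 to 0.861 in EPZ-iPrE1, -0.177 to 0.495 in EPZ-iPrE2, -0.695 to -0.310 in EPZ mean minus C57 PrESC, -1.33 to -0.355 in the EPZ minus the C57 change, -1.08 to -0.639 in knockout minus TG2A, -1.01 to -0.562 with 2i in TG2A cells, -0.114 to 0.0367 with 2i in knockout cells and -0.893 to -0.448 in E14 minus TG2A. Called genes ran from 379 to 407 between the EPZ lines, 1 to 20 for rescued minus E14, 2847 to 3156 for knockout minus TG2A in S2iL, 2076 to 3544 and 3847 to 5572 for 2i in TG2A and knockout cells, 44 to 386 for the knockout effect in 2i minus SL and 1676 to 4088 for E14 minus TG2A. Depth limits Klf2 in PrE libraries, at 3 to 17 counts.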
